A study of Mus musculus with 14 samples.

Results

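The 44 mouse genes examined act in fatty acid synthesis and in triglyceride synthesis, storage and breakdown in liver. The genes were chosen by name, from their textbook roles, with earlier results of these arrays known. Each was read from the probe set that the array annotation pairs with that gene symbol alone. Where there were several such probe sets, the brightest (mean of 14 arrays) was used. Of the 44 genes, 43 were measured among 19237 genes in all. Agpat1, an acyltransferase gene, was not analysed because its probe sets also name a second gene. Liver RNA had been hybridised to 14 Affymetrix arrays, from 7 mice labelled LRH-1 K289R and 7 labelled LRH-1 WT. LRH-1 is the nuclear receptor encoded by Nr5a2, and K289R replaces a lysine that can carry the small modifier protein SUMO. All mice were 17 to 19 weeks old, ate ad libitum and were killed at 7 am. The sources used here give no strain, sex, zygosity or litter, nor how recently each mouse had eaten. The comparison asks how the loss of this lysine alters hepatic lipid genes.

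Lipogenesis turns surplus carbohydrate into fatty acid. Citrate leaves the mitochondria and is cleaved to acetyl-CoA, which is carboxylated and then assembled into palmitate with NADPH as the reductant. Elongases and desaturases remodel the product, acyltransferases and a phosphatase place the acyl chains on glycerol, and the resulting triglyceride is kept in droplets coated by perilipins and CIDE proteins until lipases release it. In liver the pathway is known to be driven by feeding through the factors SREBP-1c (Srebf1) and ChREBP (Mlxipl), and to be switched down by fasting.

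All values below are log2(intensity + 1), called log2 units, and every difference is K289R minus WT with the standard error (SE) of limma's moderated model unless another error is named. A gene is said to rise or fall only where limma's p, adjusted by Benjamini-Hochberg over all 19237 genes, lay below 0.05. The probe sets of different genes respond differently, so no level is set against that of another gene. The scale understates changes of dim genes, and in whole tissue fewer cells of a type and less RNA per cell cannot be told apart.

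The arrays were not uniform. Scores on the first principal component of all genes (42.55% of the variance) ran from -36.6 to -1.67 in K289R and from -1.10 to 29.04 in WT livers, and K289R replicates 6 and 7 lay at the end of that range, at -30.2 and -36.6. The interquartile range of the log2 values was narrowest on K289R replicates 6 and 7 and WT replicates 4 and 6 (2.59 to 2.67). On the other arrays it was 2.69 to 2.87. The same arrays had the highest median intensities among the 14. An earlier analysis of these arrays found that replicates 1 to 4 and replicates 5 to 7 of each genotype form sets that the labels do not name. On the second component K289R replicates 1 to 4 scored 13.4 to 18.2 and K289R replicates 5 to 7 scored -9.48 to 5.56, whereas the WT sets overlapped there (-18.3 to 3.82 for WT replicates 1 to 4 and -22.0 to 0.06 for WT replicates 5 to 7). The WT sets overlapped on the first component too (1.88 to 29.04 and -1.10 to 21.16), where the K289R sets did not (-8.95 to -1.67 and -36.6 to -15.9). Each called member is therefore also given with the 4 sets as random blocks, a fit that called 2176 of all genes (11.3%), and within each set. All 8 hepatocyte markers lay above the level of olfactory and vomeronasal receptor genes, a class that liver is not known to express (95th percentile 5.06), and their summed intensity was 46241 to 49955 in K289R and 46862 to 48096 in WT livers. Nr5a2 itself differed by -0.002 ± 0.08 (adjusted p = 0.989).

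The members moved in both directions. In K289R livers 6 of the 43 rose (Mlxipl, Elovl3, Fads1, Agpat2, Lpin1 and Pnpla2) and 6 fell (Thrsp, Acaca, Me1, Elovl2, Gpam and Abhd5). This is 27.9% of the members, beside 19.1% of all genes, of which 8.37% were higher and 10.8% lower. All genes include many dim ones, whereas 41 of the 43 members lay above the level of the receptor genes. A fit of only the 12361 genes above that level called 3868 of them, a larger share than 19.1%. In that fit 6 members were higher and 7 lower. The shares of all genes set beside the lists below include the dim genes too. The median difference over the members was 0.02, and over all genes 0.05. No member differed by as much as 1 log2 unit, and 33 of the 43 differed by less than 0.3. With random blocks 7 of the 12 kept their calls, namely Mlxipl, Elovl3, Fads1 and Agpat2 among those that rose and Me1, Gpam and Abhd5 among those that fell. The members and lists were chosen with earlier results of these arrays known, so these shares describe the list and do not test it.

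**Figure D1:**
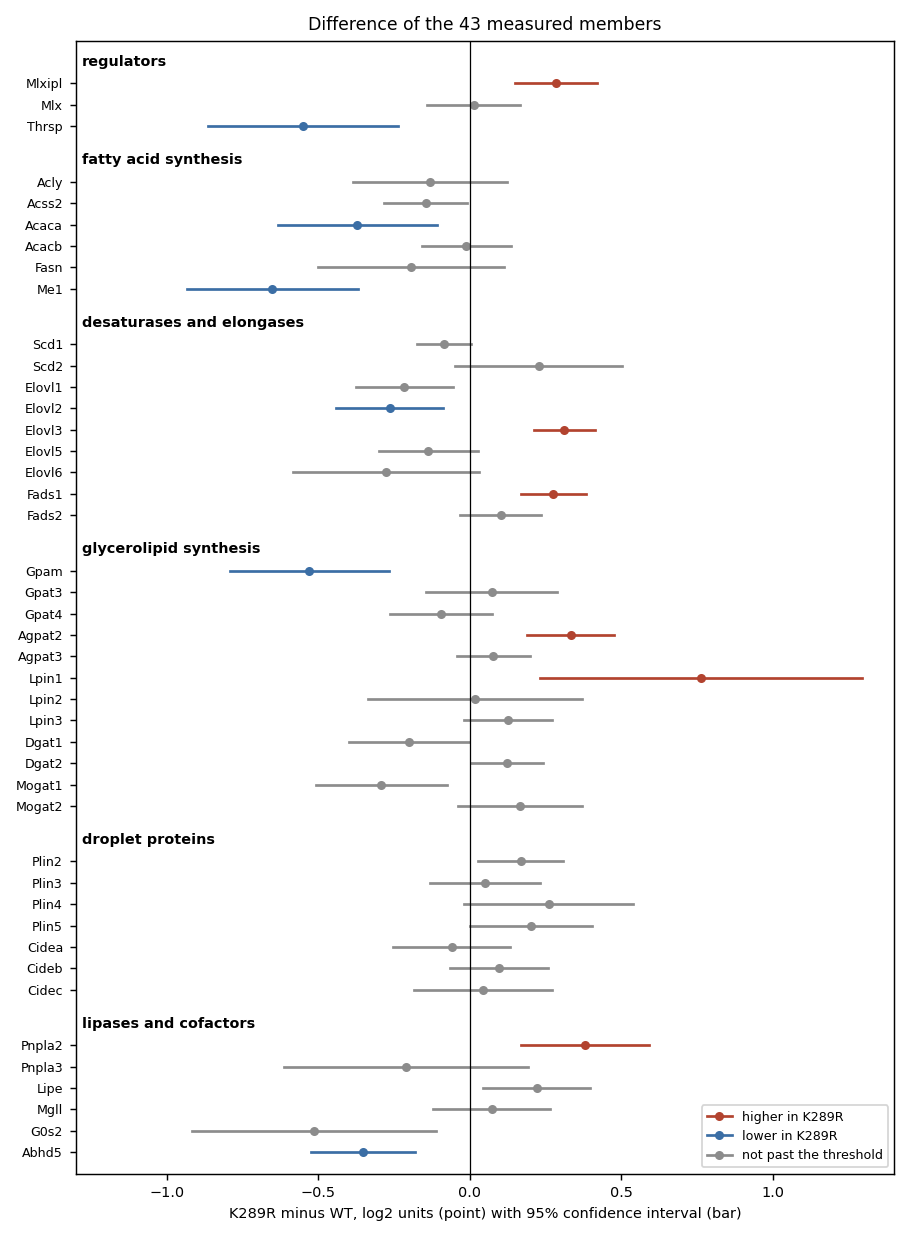
Differences of the 43 measured genes (horizontal axis, K289R minus WT in log2 units) with their 95% confidence intervals, grouped by role; red genes rose, blue genes fell and grey genes did not pass. The widest interval is that of Lpin1 (0.23 to 1.29), and no droplet protein gene passed.

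The upstream sequences of a few members are given first, because LRH-1 acts through DNA sites and SREBP and ChREBP act on promoters of this pathway. RefSeq promoter windows of 300 bases on GRCm38.p6, from 250 bases before a transcript start to 50 after it, were at hand for 35 of the 44 genes (48 windows). They were searched on both strands for AAGGTCA, the core of the LRH-1 site, CACGTG, the E-box, and CACNCCA, a core of the sterol regulatory element. Of the members with a window, the 4 that passed with the smallest p were Agpat2, Me1, Mlxipl and Abhd5 (Elovl3 and Fads1 were not matched). The windows of Agpat2 and Me1 hold none of the 3 motifs and are not printed. The first of 2 windows of Mlxipl, at chr5:135106641-135106940 on the plus strand, and the window of Abhd5, at chr9:122351366-122351665 on the plus strand, are shown 5′ to 3′ with the matches in capitals.
Mlxipl: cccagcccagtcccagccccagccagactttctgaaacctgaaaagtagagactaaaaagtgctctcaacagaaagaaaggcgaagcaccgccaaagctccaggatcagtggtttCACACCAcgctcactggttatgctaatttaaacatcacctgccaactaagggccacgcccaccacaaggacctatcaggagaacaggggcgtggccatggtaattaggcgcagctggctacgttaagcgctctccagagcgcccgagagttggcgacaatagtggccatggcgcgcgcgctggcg
Abhd5: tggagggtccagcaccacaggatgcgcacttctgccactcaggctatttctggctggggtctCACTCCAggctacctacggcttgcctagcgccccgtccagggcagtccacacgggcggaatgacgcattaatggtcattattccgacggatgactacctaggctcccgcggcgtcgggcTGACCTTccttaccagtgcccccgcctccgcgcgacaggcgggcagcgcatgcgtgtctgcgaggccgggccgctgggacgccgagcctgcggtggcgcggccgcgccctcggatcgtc
The first Mlxipl window holds 1 sterol element core, whose first base is at -135 from the transcript start. The second Mlxipl window, at chr5:135089640-135089939 on the plus strand, is not printed. It holds 1 E-box and 1 sterol element core. The Abhd5 window holds 1 sterol element core at -188 and 1 LRH-1 core on the opposite strand at -69, with no overlap between them.

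The LRH-1 core is in 2 of the 48 member windows (4.17%), those of Abhd5 and Acacb, and in 4.72% of all 32851 windows. The E-box is in 8 member windows (16.7%) and in 7.15% of all, and in 1 of the 14 windows of called members (7.14%). The sterol element core is in 12 member windows (25%) and in 18.4% of all, and in 5 windows of called members (35.7%). These are letter matches in short windows, and no binding was measured.

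The regulators went different ways. Mlxipl, which encodes ChREBP, the carbohydrate-sensing factor of glycolytic and lipogenic genes, rose, whereas Thrsp, which encodes Spot 14, a cofactor of fatty acid synthesis and a known ChREBP target, fell. Mlxipl lay at 10.09, 10.28 and 10.48 (lowest, median and highest array) in K289R and at 9.89, 9.98 and 10.13 in WT livers. Of the 7 K289R arrays 6 lay above every WT array, and replicate 2 fell inside the WT range. The difference was 0.28 ± 0.06 (adjusted p = 0.00341, and 0.0254 with random blocks), a fold of 1.22.

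Thrsp lay at 9.33, 10.16 and 10.67 in K289R and at 10.53, 10.73 and 11.02 in WT livers. The groups overlapped in the arrays of K289R replicates 1 and 5, and the other 5 K289R arrays lay below every WT array. The difference was -0.55 ± 0.15 (adjusted p = 0.0127), which was lost with random blocks (adjusted p = 0.0803). It was -0.40 without K289R replicate 2, the lowest array (adjusted p = 0.00809), and -0.29 without K289R replicates 2, 6 and 7, where the call was lost (adjusted p = 0.0581). Mlx, the obligate partner of ChREBP on DNA, differed by 0.01 with a 95% interval of -0.14 to 0.165.

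Among the 6 genes of acetyl-CoA and NADPH supply, carboxylation and chain synthesis none rose and 2 fell, and all 6 differences were below 0, with a median of -0.17. K289R replicate 2 was the lowest K289R array for all 6. Without it 1 of them fell (Me1), the median was -0.08 and Acacb differed by 0.01. Me1, the cytosolic malic enzyme that supplies NADPH, showed the clearest fall. It lay at 9.93, 10.31 and 10.72 in K289R and at 10.69, 10.88 and 11.51 in WT livers. Only K289R replicate 6 reached the WT range, at its lower end. The WT arrays lay at 10.69 to 10.88 on replicates 1 to 4 and at 11.09 to 11.51 on replicates 5 to 7. The K289R sets overlapped, at 9.93 to 10.68 and 10.31 to 10.72. The difference was -0.65 ± 0.13 (adjusted p = 0.00152, and 0.00704 with random blocks), and Me1 passed in both sets, at -0.54 among replicates 1 to 4 and -0.80 among replicates 5 to 7. A second Me1 probe set differed by -0.67. Whether it shares probes with the first was not examined.

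Acaca encodes acetyl-CoA carboxylase 1, which makes the malonyl-CoA used for synthesis. It lay at 8.80, 9.25 and 9.55 in K289R and at 9.23, 9.55 and 10.004 in WT livers, with 3 K289R arrays below every WT array. The fall of -0.37 ± 0.13 was close to the threshold (adjusted p = 0.0429). The call was lost with random blocks (adjusted p = 0.139), with quantile normalization (0.103), with centring and interquartile range scaling (0.104) and with array weights (0.079). It was also lost without the intensity trend (0.0513), among replicates 1 to 4 alone (0.308) and without K289R replicates 6 and 7 (0.114). Without K289R replicates 2, 6 and 7 the difference was -0.22 (adjusted p = 0.316). The call was lost too in 9 of the 14 fits that left out 1 array. These were the fits without K289R replicate 2, 4, 6 or 7 or WT replicate 3, 4, 5, 6 or 7, over which the adjusted p reached 0.102 and the difference ran from -0.39 to -0.30. A second, dimmer Acaca probe set differed by -0.70 ± 0.13 (adjusted p = 0.000557). These values come from a separate limma fit of all 21456 probe sets with 1 symbol, adjusted over those probe sets.

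The other 4 genes of this step did not pass. Fasn, the multifunctional synthase that assembles palmitate, lay at 10.81, 11.75 and 12.13 in K289R and at 11.62, 11.87 and 12.16 in WT livers. Apart from replicate 2, each K289R array lay inside the WT range. Its difference was -0.19 with an interval of -0.50 to 0.11, and -0.04 without K289R replicate 2. Acly, the citrate lyase, differed by -0.13 (-0.39 to 0.12, and by -0.04 without K289R replicate 2), Acss2, which activates acetate, by -0.15 (-0.28 to -0.01, adjusted p = 0.138), and Acacb, the mitochondrial carboxylase that restrains fatty acid oxidation, by -0.01 (-0.16 to 0.13). The intervals of Fasn and Acly reach below the difference of Acaca, and that of Acacb does not.

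**Figure D2:**
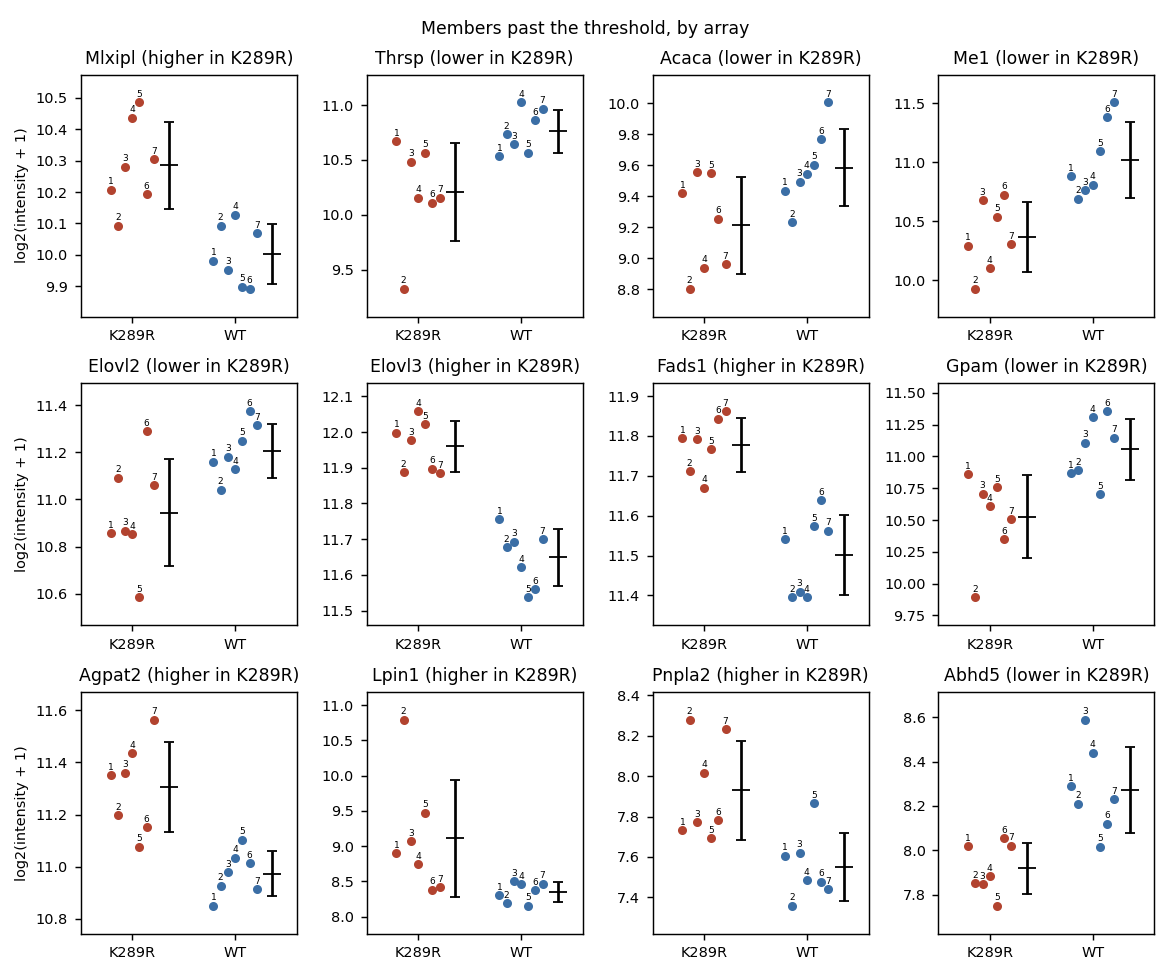
The 12 genes that passed, 1 panel each, with log2(intensity + 1) on the vertical axis (each panel has its own range). Points are single arrays labelled by replicate number, K289R left and WT right, and the bars show mean and SD of 7 arrays. Elovl3 and Fads1 do not overlap between the genotypes. K289R replicate 2 is the lowest K289R array in Mlxipl, Thrsp, Acaca, Me1 and Gpam and the highest in Lpin1 and Pnpla2.

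Among 9 desaturase and elongase genes 2 rose and 1 fell. The 2 that rose, Elovl3 and Fads1, were also the only members whose K289R and WT values did not overlap, which was so for 7.54% of all genes. Elovl3, an elongase of saturated and monounsaturated very long chains, lay at 11.88, 11.98 and 12.06 in K289R and at 11.54, 11.68 and 11.76 in WT livers. Its difference of 0.31 ± 0.05 (adjusted p = 8.21e-05, a fold of 1.24) kept its call with random blocks (adjusted p = 0.0013) and in both sets, at 0.29 and 0.34. Fads1 encodes a desaturase of polyunsaturated fatty acid synthesis. It lay at 11.67, 11.79 and 11.86 in K289R and at 11.40, 11.54 and 11.64 in WT livers. The difference was 0.27 ± 0.05 (adjusted p = 0.000575, and 0.00496 with random blocks), with 0.31 among replicates 1 to 4 and 0.23 among replicates 5 to 7, where it did not pass (adjusted p = 0.109).

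Fads2, which encodes the desaturase that acts earlier in the same route, did not pass, with 0.10 and an interval of -0.03 to 0.23. Elovl2, which elongates long polyunsaturated chains toward the precursor of docosahexaenoic acid, fell. It lay at 10.58, 10.87 and 11.29 in K289R and at 11.04, 11.18 and 11.38 in WT livers, so that 4 K289R arrays were below every WT array. The difference was -0.26 ± 0.08 (adjusted p = 0.0325). The call was lost with random blocks (adjusted p = 0.126), with quantile normalization (adjusted p = 0.0753), with centring and interquartile range scaling (adjusted p = 0.346) and in 7 of 14 fits that left out 1 array (without K289R replicate 1, 3, 4 or 5 or WT replicate 5, 6 or 7, with an adjusted p of up to 0.0672 and a difference of -0.26 to -0.20).

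Scd1, the main hepatic desaturase of saturated chains, lay between 12.82 and 12.99 in K289R and between 12.88 and 13.08 in WT livers, near the highest value of any probe set (13.64). Its difference was -0.09 with an interval of -0.18 to 0.005 (adjusted p = 0.191). Its spread on this array was narrow, with an SD of 0.07 in each genotype. Whether the probe set still responds in proportion at that brightness was not tested. The elongase genes Elovl5 (-0.14) and Elovl6 (-0.28, interval -0.58 to 0.03) did not pass. Elovl1, an elongase of saturated very long chains, narrowly missed the threshold at -0.22 ± 0.08 (adjusted p = 0.0544). Scd2, a relative of Scd1 better known from brain, differed by 0.23 (adjusted p = 0.261).

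Glycerolipid assembly also divided, with 2 of 12 measured genes higher and 1 lower. Gpam, the mitochondrial glycerol-3-phosphate acyltransferase that commits acyl-CoA to this route, fell. It lay at 9.89, 10.61 and 10.86 in K289R and at 10.70, 11.11 and 11.36 in WT livers. K289R replicates 2, 4, 6 and 7 were below every WT array and the other 3 reached the lower part of the WT range. The difference was -0.53 ± 0.13 (adjusted p = 0.00486, 0.0418 with random blocks), and it was the same size in both sets, at -0.53 and -0.53. Without K289R replicate 2 it was -0.42 (adjusted p = 0.00526).

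Agpat2, which adds the next acyl chain and whose loss causes lipodystrophy, rose. It lay at 11.08, 11.35 and 11.56 in K289R and at 10.85, 10.98 and 11.10 in WT livers, with 6 K289R arrays above every WT array. The difference was 0.33 ± 0.07 (adjusted p = 0.00144, and 0.017 with random blocks), a fold of 1.26. It was 0.39 among replicates 1 to 4 and 0.26 among replicates 5 to 7, where it did not pass (adjusted p = 0.208).

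Lpin1 encodes lipin 1, the phosphatase that makes diacylglycerol and also a coregulator of fasting genes. It showed the largest difference of the 43 and also the widest spread. It lay at 8.38, 8.90 and 10.80 in K289R and at 8.15, 8.38 and 8.51 in WT livers. K289R replicates 1 to 5 were above every WT array, and K289R replicates 6 and 7 lay inside the WT range. The difference of 0.76 ± 0.25 (adjusted p = 0.0406, a fold of 1.70) was 0.48 without replicate 2 and still passed (adjusted p = 0.0168).

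The Lpin1 call was lost with random blocks (adjusted p = 0.167), with median centring (0.0587), with a robust prior (0.115) and in 9 of 14 fits that left out 1 array. These were the fits without K289R replicate 3 (0.77, adjusted p = 0.0569), without K289R replicate 5 (0.70, adjusted p = 0.0828) and without any of the 7 WT arrays, with an adjusted p of up to 0.0754. Leaving out K289R replicates 2, 6 and 7 together, a choice made after seeing the data, gave 0.70 (adjusted p = 0.000176). Lpin2, a lipin gene known to be prominent in liver, differed by 0.02 with a wide interval (-0.34 to 0.37), and Lpin3 by 0.13.

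The enzymes of the last step did not pass. Dgat2 lay at 11.15, 11.36 and 11.48 in K289R and at 11.12, 11.19 and 11.30 in WT livers, a difference of 0.12 (interval 0.003 to 0.24, adjusted p = 0.155). Dgat1 differed by -0.20 (interval -0.40 to -0.002, adjusted p = 0.161). Dgat2 handles newly made fatty acid and Dgat1 mostly reuses acyl chains taken up from outside, as is known from mouse and cell studies. The monoacylglycerol acyltransferase genes Mogat1 (-0.29 ± 0.10, adjusted p = 0.0534) and Mogat2 (0.17) were dim, Mogat1 below the level of the receptor genes, so that its difference can be understated. Gpat3, Gpat4 and Agpat3 differed by 0.07, -0.10 and 0.08.

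Of the 7 droplet protein genes none passed with all arrays, and their median difference was 0.10. At an unadjusted p below 0.05 there were 2, Plin2 and Plin5, both higher, beside 30.3% of all genes at that p. Plin2, the main perilipin of hepatocyte droplets, lay at 10.99, 11.10 and 11.28 in K289R and at 10.79, 10.87 and 11.14 in WT livers. The difference was 0.17 ± 0.07 (adjusted p = 0.0913), and it passed with quantile normalization (0.23, adjusted p = 0.0157). Plin5, which tethers droplets to mitochondria, lay at 7.62, 7.74 and 8.17 in K289R and at 7.34, 7.49 and 7.94 in WT livers (0.20 ± 0.10, adjusted p = 0.162).

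Plin3 differed by 0.05, Plin4 by 0.26 (interval -0.02 to 0.54), and the CIDE genes Cidea, Cideb and Cidec, whose proteins fuse droplets or load lipoproteins, by -0.06, 0.10 and 0.04. Cidea lay below the level of the receptor genes. Some values differed between the 2 sets of arrays. Among replicates 1 to 4 Plin2 (0.32 ± 0.06, adjusted p = 0.00259), Plin5 (0.40 ± 0.11, adjusted p = 0.0191) and Cidec (0.30 ± 0.09, adjusted p = 0.0375) were past the threshold. Among replicates 5 to 7 their differences were -0.03, -0.06 and -0.30. Whether the sets differ in these genes was not tested.

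Among the 6 genes of lipolysis 1 rose and 1 fell. Pnpla2, which encodes adipose triglyceride lipase, the enzyme of the first hydrolysis step, rose, and Abhd5, which encodes its activator CGI-58, fell. Pnpla2 lay at 7.69, 7.78 and 8.28 in K289R and at 7.36, 7.49 and 7.87 in WT livers. All K289R arrays lay above 6 of the 7 WT arrays, with WT replicate 5 inside the K289R range. The difference was 0.38 ± 0.10 (adjusted p = 0.0109), and the call was lost with random blocks (adjusted p = 0.0728) and without K289R replicates 2, 6 and 7 (0.25, adjusted p = 0.0704).

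Abhd5 lay at 7.75, 7.88 and 8.06 in K289R and at 8.02, 8.23 and 8.59 in WT livers. The groups overlapped by little, with 4 K289R arrays below every WT array. The difference was -0.35 ± 0.08 (adjusted p = 0.00405, and 0.0292 with random blocks). It was -0.48 among replicates 1 to 4 and -0.18 among replicates 5 to 7, where it did not pass (adjusted p = 0.369).

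G0s2, which encodes the inhibitor of the same lipase, did not pass, at -0.51 ± 0.19 (adjusted p = 0.0703). Its WT arrays fell into 2 levels, 7.97 to 8.35 on replicates 1 to 4 and 8.77 to 9.13 on replicates 5 to 7, whereas the K289R arrays ran from 7.55 to 8.54 and the same sets overlapped. Other members, among them Me1, Acaca, Plin2 and Cidec, also had WT sets that did not overlap. The G0s2 difference was -0.11 among replicates 1 to 4 and -1.06 ± 0.19 among replicates 5 to 7 (adjusted p = 0.0029). Pnpla3, a lipid remodelling enzyme whose human variant is tied to fatty liver, lay at 6.62, 7.80 and 7.999 in K289R and at 7.22, 7.77 and 8.41 in WT livers, a difference of -0.21 with an interval of -0.61 to 0.19, and of -0.04 without K289R replicate 2. Lipe, the hormone-sensitive lipase of diglyceride, differed by 0.22 (adjusted p = 0.0765), and Mgll, the monoglyceride lipase, by 0.07.

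Adipocyte genes were read because fat cells also express Lipe, Plin4, Cidec and Pnpla2. Adipoq lay between 3.09 and 3.49 in K289R and between 3.31 and 3.56 in WT livers, below the 95th percentile of the receptor genes, as did Lep, while Plin1 lay between 4.92 and 5.83 in K289R and between 5.05 and 5.83 in WT livers. The sum of the 8 measured adipocyte markers was 4342.5 to 5637 in K289R and 6208 to 6840 in WT livers, and it was mostly Car3, which hepatocytes express too. Without Car3 it was 267.6 to 300.3 in K289R and 248.2 to 297.2 in WT livers. Of those 8 markers 1 rose and 2 fell (37.5% called, beside 19.1% of all genes). Of 10 markers of Kupffer cells and macrophages, cells that also express Plin2, 1 rose and 4 fell (50% called). The sums were 1491 to 2674 in K289R and 2135 to 2589 in WT livers. The part of these cells in the result was not tested.

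**Figure D3:**
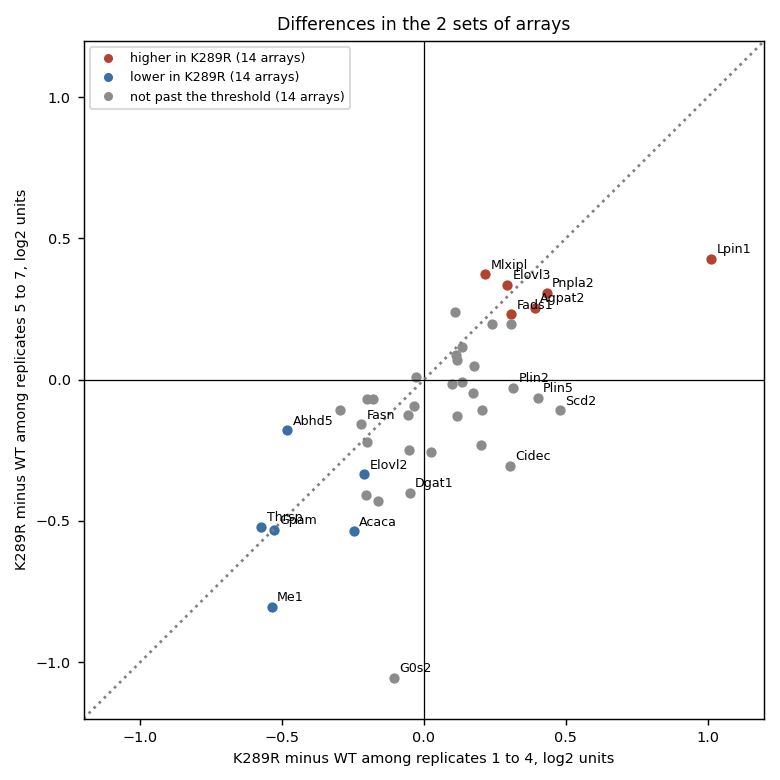
Each point is 1 of the 43 genes, with its K289R minus WT difference among replicates 1 to 4 on the horizontal axis and among replicates 5 to 7 on the vertical axis (log2 units). The dotted line marks equal differences. The 12 genes that passed with all arrays keep their sign in both sets, which their selection from these same arrays favours. G0s2, Cidec, Plin2, Plin5 and Scd2 are among the genes far from the line, and so is Lpin1, which passed with all arrays (1.01 and 0.43).

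Within the sets, 9 members rose and 5 fell among replicates 1 to 4, beside 14.1% of all genes called there, and 2 rose and 5 fell among replicates 5 to 7, beside 9.16% of all genes. Me1, Gpam and Elovl3 were the 3 members that passed in both. None of the 12 called members changed sign between the sets, while 12 of all 43 members did. Mlxipl, Thrsp and Acaca passed among replicates 5 to 7 and not among replicates 1 to 4, and the reverse held for Fads1, Agpat2, Lpin1, Pnpla2, Abhd5 and Elovl2. Among replicates 1 to 4 the differences were 0.22 (Mlxipl), -0.57 (Thrsp), -0.25 (Acaca), -0.21 (Elovl2), 1.01 (Lpin1) and 0.43 (Pnpla2). Among replicates 5 to 7 they were 0.37, -0.52, -0.54, -0.33, 0.43 and 0.31 in the same order. The sets hold 3 or 4 mice per genotype, and no difference between them was tested for these genes.

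One K289R liver, singled out after its values were seen, differed from the other K289R livers in fatty acid synthesis. K289R replicate 2 was the lowest of the 7 K289R arrays for 12 of the 43 members, and for 11.7% of the 12361 genes above the receptor level. That count alone does not set it apart, since WT replicate 2 was the lowest WT array for 12 members too. K289R replicate 2 was the lowest for all 6 genes of fatty acid synthesis, and for Mlxipl, Thrsp, Elovl6, Gpam, Plin3 and Pnpla3. It was the highest for 7 of the 43 members (Gpat4, Lpin1, Lpin2, Plin2, Plin4, Plin5 and Pnpla2), close to its share of 16.6% among all genes above the receptor level. On this array Fasn was at 10.81, with the other K289R arrays at 11.63 to 12.13, and Lpin1 at 10.80, with the others at 8.38 to 9.48.

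Many genes of the fasting response were also extreme on this array, in both directions. It was the highest K289R array for 7 of the 12 measured genes of that list (Pck1, Igfbp1, Cpt1a, Angptl4, Cyp4a14, Ppara and Lcn2). It was the lowest for 2, G6pc (11.60, with the others at 11.83 to 12.54) and Pdk4 (7.04, with the others at 7.75 to 8.53), both induced by fasting. It was the lowest for 8 of 11 genes of carbon and NADPH supply. Named after their values were seen, Srebf1 was at 8.05 there and at 9.13 to 9.99 on the other K289R arrays (9.24 to 9.68 in WT livers), Pck1, a gluconeogenic enzyme, at 11.60 and 9.34 to 10.86, and Angptl4, a fasting-induced lipase inhibitor, at 9.72 and 7.19 to 8.11. The labels give the same feeding for all mice, and the part of food intake in these values was not tested. Without this array 6 members rose and 5 fell, and Acaca was the member that lost its call (-0.30, adjusted p = 0.0904).

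**Figure D4:**
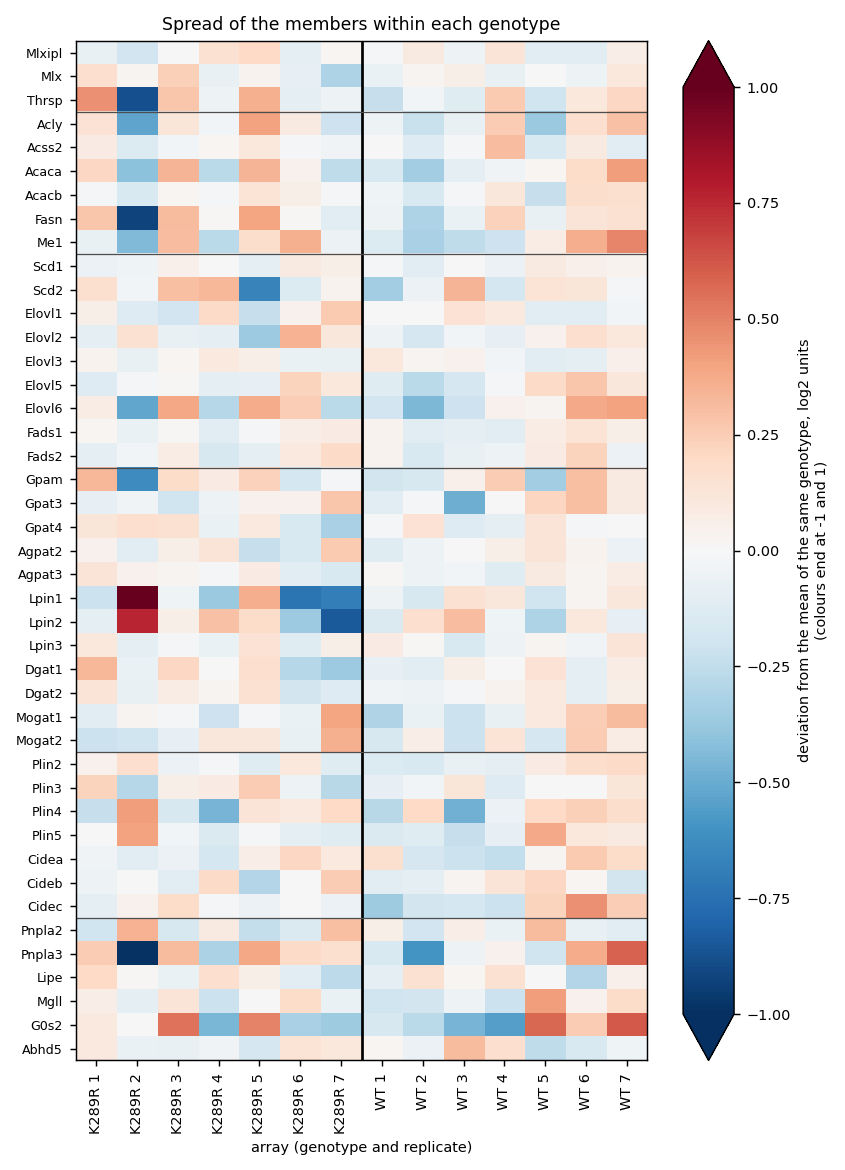
Deviation of each of the 43 genes (rows, ordered by role with lines between roles) on each of the 14 arrays (columns, K289R left and WT right) from the mean of the same genotype, in log2 units; colours end at -1 and 1. The column of K289R replicate 2 is blue for the synthesis genes and red for Lpin1 and Lpin2, and K289R replicates 6 and 7 are blue for the same lipin genes.

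The spread within a genotype was uneven among the members. The median SD over the 43 members was 0.19 in K289R and 0.17 in WT livers, and over all genes above the receptor level it was 0.17 in K289R and 0.14 in WT livers. Lpin1 had an SD of 0.83 in K289R livers, 0.41 without replicate 2, and 0.14 in WT livers. Lpin2 had 0.51, 0.42 and 0.21 in the same order, and Fasn 0.45, 0.20 and 0.18.

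Genes around the pathway were read in the same fit, by lists that were chosen with earlier results known. Of 18 further regulators of lipogenesis 6 rose and 1 fell (38.9% called, beside 19.1% of all genes), with a median difference of 0.13. With random blocks 3 rose and none fell, in a fit that called 11.3% of all genes. Insig2, which retains SREBP in the endoplasmic reticulum, rose by 0.57 ± 0.07 and the kinase gene Akt2, of the insulin pathway, by 0.34 ± 0.06. Srebf1 differed by -0.19 ± 0.21 (interval -0.62 to 0.24) and by 0.02 without K289R replicate 2. Of 11 genes of carbon and NADPH supply 1 rose and 4 fell (45.5% called), against none and 3 with random blocks. Mpc1, a subunit of the mitochondrial pyruvate carrier, fell by 1.25 ± 0.08 and Pgd, an NADPH-producing enzyme of the pentose phosphate pathway, by 0.43 ± 0.08.

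Of 17 genes that form droplets or take triglyceride out of the liver cell, 4 rose and 7 fell (64.7% called, beside 19.1% of all genes), with a median difference of -0.03, and with random blocks 2 rose and 6 fell. Aadac, a lipase of the endoplasmic reticulum linked to lipoprotein assembly, fell by 0.51 ± 0.05 and Rab18, a droplet GTPase, by 0.85 ± 0.09. Of 12 genes of fatty acid uptake and activation 2 rose and 3 fell (41.7% called), and with random blocks 1 rose and 3 fell. Fabp2, a fatty acid binding protein, differed by -1.201 ± 0.17 and Acbd3 by -0.45 ± 0.07. Of 16 genes of the phospholipid branch 3 rose and 2 fell (31.2% called), and with random blocks 1 rose and 1 fell. Lclat1, an acyltransferase acting on cardiolipin, differed by -0.36 ± 0.06 and Pemt, a methyltransferase of phosphatidylcholine synthesis, by 0.38 ± 0.07.

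Of 12 fasting response genes 6 rose (beside 8.37% of all genes) and none fell, with a median difference of 0.50. With random blocks 3 rose, and the calls of Pck1 (adjusted p = 0.0623), G6pc (0.0706) and Cpt1a (0.166) were lost. The differences of Pdk4 (-0.25), Ppargc1a (-0.17) and Tat (-0.11) were below 0 and did not pass. Ppara, the nuclear receptor of the fasting liver, rose by 0.48 ± 0.07 and Igfbp1, an insulin-suppressed secreted protein, by 1.62 ± 0.37. Without K289R replicate 2, 5 rose and the median was 0.38. Of 13 clock genes 1 rose and 1 fell (15.4% called, beside 19.1% of all genes), also with random blocks, with a median of -0.04. The 12 genes named from these lists with a rise or fall and its SE (Insig2, Akt2, Mpc1, Pgd, Aadac, Rab18, Fabp2, Acbd3, Lclat1, Pemt, Ppara and Igfbp1) kept their calls with random blocks. These values stand beside the falls of Me1, Gpam and Abhd5 and the rises of Mlxipl, Elovl3, Fads1 and Agpat2. They also stand beside the falls of Thrsp, Acaca and Elovl2 and the rises of Lpin1 and Pnpla2, which lost their calls with random blocks. The part of the listed genes in the results of the members was not tested.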

How the data were processed

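The deposited table holds probe set intensity values on a linear scale (2.104 to 12780) for 35556 probe sets on 14 arrays, which the authors deposited; the submitters' processing notes name Affymetrix Expression Console. Its version, the background correction, the summarisation, any scaling between arrays and the build are not given in the sources used here. An array has no read depth, so precision rests on 7 arrays per genotype. RNA was extracted with Trizol and 100 ng amplified, per the labels' protocols.

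From these values log2(intensity + 1) was computed. The platform annotation gave 1 symbol for 21456 probe sets, several for 2376 (left out), and did not list 11724. Symbols were updated by Entrez ID (21277 matched, 2 replaced). Each of 19237 genes kept its brightest probe set. The genotypes (7 K289R, 7 WT) were fitted in limma 3.58.1 under R 4.3.3 (genotype alone, intensity trend, 2-sided, Benjamini-Hochberg over all genes, threshold 0.05), tested on simulated data. The p-values weigh each difference against the spread between arrays of the same genotype. In the main fit that spread holds mouse, array handling and the unnamed sets together.

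Members, lists and tests were chosen with earlier results of these data known. All members were to be named, those past the threshold in full, and up to 2 passing genes of each further list. Replicate numbers do not pair the arrays by the labels. The alternatives were other normalizations, pseudocounts, blocks, priors, filters, thresholds and subsets of arrays.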

Additional observations from a re-analysis of the deposited data

Results flagged for a closer look

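In 86 groups of 7 arrays (43 genes in each genotype), 4 had a lowest or highest array set apart from the others by more than Dixon's 95% limit for 7 values. Chance flags about 1 in 20 such groups. In 3 of the 4 the array was K289R replicate 2. On it Thrsp was at 9.33, with the next K289R array at 10.11, Fasn was at 10.81, with the next at 11.63, and Plin5 was at 8.17, with the next at 7.77. The remaining gene was Mogat1, at 4.54 on K289R replicate 7 with the next at 4.18, a probe set below the level of the receptor genes. The values without K289R replicate 2 were -0.40 for Thrsp (adjusted p = 0.00809), -0.04 for Fasn (adjusted p = 0.787) and 0.13 for Plin5 (adjusted p = 0.303). Without K289R replicate 7 Mogat1 passed, at -0.36 (adjusted p = 0.0116).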

How the results depend on the processing

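The counts of 6 higher and 6 lower members stayed within 1.5 times under most alternatives. The exceptions were 3 lower members at a threshold of 0.01, 3 lower with random blocks for the sets, and 2 higher among replicates 5 to 7 alone, which hold fewer mice. Fits that left out 1 array gave 5 to 7 higher and 4 to 7 lower. With the replicate block 7 were higher and 8 lower. Same-numbered arrays deviated together (correlation over 0.1) in 3 of 7 pairs, and 2 K289R arrays correlated best with their own number, so the numbers are not taken as pairs. No called member changed sign under any alternative run. The alternatives used the same arrays or parts of them, so a kept sign was favoured by the selection. Me1, Gpam and Elovl3 passed under all of them, and 9 of the 12 passed in all 14 fits without 1 array, the exceptions being Acaca, Elovl2 and Lpin1. Members that gained a call under at least 1 alternative numbered 10, none of them with random blocks. Among them Lipe reached 0.26 (adjusted p = 0.0134) and Dgat2 0.18 (adjusted p = 0.0328) with quantile normalization. Fits without 1 array added Elovl1 (without K289R replicate 4 or 7 or WT replicate 6), Mogat1 (without K289R replicate 7 or WT replicate 1 or 3), G0s2 (without K289R replicate 3 or 5 or WT replicate 3 or 4), Plin2 (without WT replicate 6 or 7), Plin5 (without WT replicate 5), Scd2 (without K289R replicate 5) and Lipe (without K289R replicate 7). The cause was not tested. Dim genes such as Mogat1 and Cidea are limited by signal over background.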
